A study of Mus musculus with 9 samples.

Results

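Wnt ligands and the feedback genes of their pathway were examined in mouse embryonic fibroblasts (MEFs), which are connective tissue cells grown from embryos. The list held 10 genes, chosen by name: the ligand genes Wnt2, Wnt4, Wnt5a, Wnt5b and Wnt9a, and the feedback targets Axin2, Lef1, Tcf7, Nkd1 and Notum. Of these, 9 were measured among the 19938 genes of the arrays that carry a single symbol, and Tcf7 was not analysed here. RNA came from 3 genotypes, WT, DM (mutated in both ERO1alpha and ERO1beta) and TM (the same mutations with PRDX4 knocked out), and was put on Affymetrix Gene ST arrays, 3 for each genotype. All cells carried T antigen and are labelled as C57B/L6. The methods on MEF isolation list a control whose ERO1beta alleles were both mutant and which carried a single mutant ERO1alpha allele, whereas the array labels call it wild type, and WT below stands for the labelled group. Whether arrays of a genotype stand for different cultures is not given, and p-values therefore reflect spread among arrays that may be technical.

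Wnt proteins are secreted lipid-modified ligands that bind Frizzled receptors together with LRP5 or LRP6. In the canonical branch this stabilises β-catenin, which enters the nucleus and activates genes through the DNA-binding factors TCF and LEF. Some of those genes feed back on the pathway. AXIN2 rebuilds the complex that destroys β-catenin, NKD1 binds Dishevelled, NOTUM removes the lipid of secreted Wnt proteins, and LEF1 is itself a nuclear partner of β-catenin. Other ligands, WNT5A among them, mostly signal through ROR receptors without β-catenin. In connective tissue the pathway is known for its part in fibroblast growth, matrix production and bone formation.

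Expression was read as RMA values on the log2 scale, so that differences are log2 fold changes. The medians of the arrays lay between 7.62 and 7.72, arrays of the same genotype correlated at 0.994 to 0.997 and arrays of different genotypes at 0.976 to 0.984. Calls required a change over 1.5-fold (0.585 on the log2 scale) together with a Benjamini-Hochberg adjusted p under 0.05, from limma over all 19938 genes. Ero1a mRNA averaged 11.86 in WT, 9.46 in DM and 9.06 in TM MEFs, and Prdx4 mRNA averaged 10.56, 10.68 and 6.30. Ero1b mRNA averaged 7.65 in WT, 7.7 in DM and 7.94 in TM MEFs and was not called in any comparison. Of 8 fibroblast markers, 2 were higher (Pdgfrb and Dcn) and 2 lower (Col1a2 and Pdgfra) in DM than in WT MEFs, beside 5.28% and 5.67% of all genes. In TM 3 were higher (Pdgfrb, Thy1 and Dcn) and none lower, beside 5.59% and 3.56%. Col1a2 averaged 11.75 in WT, 10.04 in DM and 11.87 in TM MEFs, and Pdgfra averaged 10.66, 8.74 and 10.45. Of the same markers, Col1a1, Fn1 and Dcn were at 11.03 or above on all 9 arrays, whereas Thy1 was at 7.31 to 7.69 in WT and DM and at 10.48 to 10.77 in TM MEFs. Xist, which is transcribed from the inactive X, lay at 12.50 to 12.63 in DM MEFs and at 5.64 to 5.83 on the other 6 arrays. The Y-linked gene Eif2s3y averaged 10.24 in WT, 8.23 in DM and 10.31 in TM MEFs, and Uty and Kdm5d were also lowest in DM. DM MEFs thus differed from both other groups in sex chromosome expression.

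Of the 9 measured genes, 2 ligand genes rose in DM MEFs, Wnt5a and Wnt4, and 1 feedback target fell, Lef1. In TM MEFs Lef1 fell as well and no other gene of the list was called. No gene of the list was called between TM and DM. Lef1 was 2.43-fold lower than WT in DM and 2.55-fold lower in TM MEFs, Wnt5a was 1.65-fold higher in DM, and Wnt4 was 1.51-fold higher in DM. The calls in DM, 2 higher and 1 lower, stand beside 5.28% of all genes called higher and 5.67% called lower. The call in TM stands beside 3.56% called lower and 5.59% called higher. With 9 genes, a count of 1 is the least above 0 that the list could show, and such a count describes Lef1 and not the list. Between TM and DM, 4.68% of all genes were higher and 3.61% lower. The counts of 0, from limma, were also 0 at an unadjusted p under 0.05 and with Student's t-test at the same fold limit. With the mean of all probe sets of a gene, 1 gene, Wnt4, was lower in TM than in DM. In RNA from a whole culture, fewer cells that express a gene and less of its RNA in each cell cannot be told apart.

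**Figure D1:**
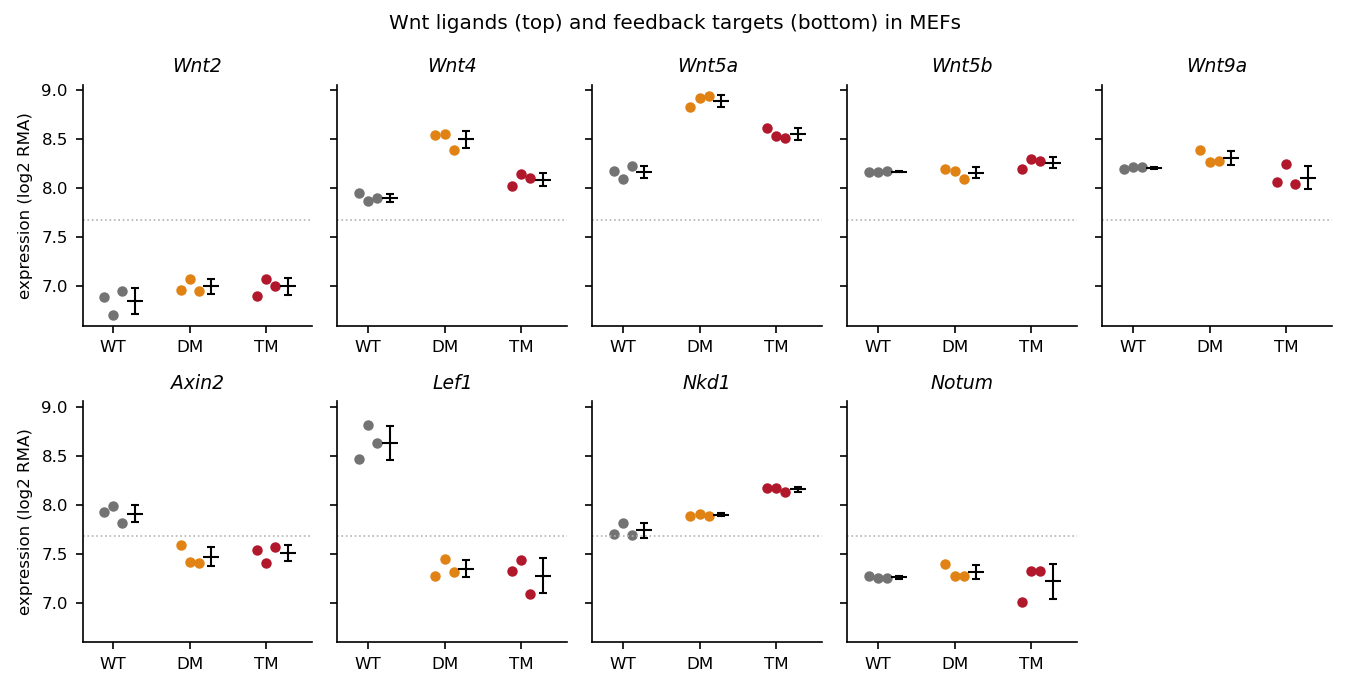
Expression of the 9 measured genes on the log2 RMA scale (vertical axis) in WT (grey), DM (orange) and TM (red) MEFs. Points are single arrays, black marks and bars are the mean and SD (3 arrays per genotype), and the dotted line is the median of all values, 7.68. Lef1 is at 8.47 to 8.81 in WT and at 7.45 or below in both mutants, Wnt4 and Wnt5a are highest in DM, and Wnt2 and Notum lie under the dotted line on all 9 arrays.

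The letters upstream of 3 of these genes are shown because the canonical branch acts on DNA through TCF and LEF, and these are the genes with the largest changes among those with an entry in the promoter table (RefSeq, GRCm38.p6, from 250 bases before to 50 after each start). Lef1 and Axin2 stood lower in both mutants, and Wnt4 stood highest in DM. The motifs searched on both strands were CTTTGAA (in 5.14% of all windows in the table), CTTTGAT (3.73%), CTTTGTA (3.63%) and CTTTGTT (5.85%), and motif letters are printed in capitals. None lies in these 3 stretches, which run 5′ to 3′ up to the base before the start, at chr3:131110047-131110296 (plus strand, the first of 4 Lef1 starts), chr11:108920099-108920348 (plus strand) and chr4:137277385-137277634 (plus strand).
Lef1: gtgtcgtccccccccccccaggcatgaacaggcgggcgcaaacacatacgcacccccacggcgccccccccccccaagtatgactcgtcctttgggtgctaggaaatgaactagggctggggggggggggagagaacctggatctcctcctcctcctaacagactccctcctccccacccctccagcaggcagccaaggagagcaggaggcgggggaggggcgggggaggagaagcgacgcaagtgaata
Axin2: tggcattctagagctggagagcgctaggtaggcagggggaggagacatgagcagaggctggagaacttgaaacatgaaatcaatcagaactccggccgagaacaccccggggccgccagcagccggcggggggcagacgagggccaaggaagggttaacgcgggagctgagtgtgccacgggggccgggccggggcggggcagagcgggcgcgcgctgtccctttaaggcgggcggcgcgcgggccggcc
Wnt4: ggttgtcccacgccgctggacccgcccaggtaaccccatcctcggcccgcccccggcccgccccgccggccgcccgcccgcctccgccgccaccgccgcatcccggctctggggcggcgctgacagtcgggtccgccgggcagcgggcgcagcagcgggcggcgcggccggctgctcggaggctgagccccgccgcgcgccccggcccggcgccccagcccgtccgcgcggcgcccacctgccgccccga

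Of the 9 measured genes, 7 had an entry, with 12 start sites in all, and Wnt5a and Notum had none. A motif lay in 2 of the 12 windows, against 16.9% of the 32851 windows in the table. They belong to Lef1 start 4, at chr3:131156135-131156164 (plus strand), where CTTTGTA is on the opposite strand, and to the first listed Wnt5b start, at chr6:119449440-119449469 (minus strand).
Lef1 start 4: acaacctcagaaTACAAAGtaggattgcat
Wnt5b: gagtaagtctctCTTTGATctgctccctgt
The probe sets give 1 value per gene, so that starts were not measured apart. The share of G and C in the 12 windows ran from 43.7% to 84.3%, with the highest at Wnt4, and the median over all windows was 52.7%. These matches are letters in a window, and no binding was measured. Sequence outside the windows was not searched, so that a window without a motif does not describe the rest of a gene.

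Lef1, which encodes a DNA-binding partner of β-catenin, had the largest change of the list. Its log2 level was 8.47, 8.81 and 8.63 on the WT arrays, 7.28, 7.45 and 7.32 on the DM arrays and 7.33, 7.44 and 7.09 on the TM arrays. All WT arrays lay above all mutant arrays, and the DM and TM arrays overlapped. The log2 fold change against WT was -1.28 in DM (SE 0.10, 95% interval -1.50 to -1.06, limma adjusted p = 5.62e-07) and -1.35 in TM (SE 0.10, interval -1.57 to -1.13, limma adjusted p = 3.82e-07). TM minus DM was -0.068, with an interval of -0.29 to 0.15. Lef1 was above the array median in WT and below it on all 6 mutant arrays, where the signal of a dim probe set can understate a difference. Lef1 is also a gene of T cells. Of 7 measured T cell markers, none was called in any comparison, beside 3.56% to 5.67% of all genes in each direction. Their mean per array was 6.30 to 6.39 in WT, 6.34 to 6.55 in DM and 6.31 to 6.45 in TM MEFs. Single markers lay between 4.92 and 7.80. With 7 such dim genes a count of 0 lies near these shares, and the cells that gave the Lef1 RNA were not tested.

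Axin2, the feedback target most widely used as a readout of β-catenin activity, was at 7.93, 7.99 and 7.82 in WT, at 7.59, 7.42 and 7.41 in DM and at 7.54, 7.41 and 7.57 in TM MEFs. Its WT arrays did not overlap with those of either mutant, while the mutants overlapped with each other. The log2 fold change was -0.44 in DM (interval -0.59 to -0.28, limma adjusted p = 0.000337) and -0.40 in TM (interval -0.56 to -0.25, limma adjusted p = 0.000763), or 1.36-fold and 1.32-fold, under the limit of 1.5-fold. Like Lef1, Axin2 stood above the array median in WT and below it in both mutants.

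Nkd1, which encodes an inhibitor that binds Dishevelled, differed from WT in the opposite direction. It was at 7.70, 7.82 and 7.69 in WT, at 7.89, 7.91 and 7.89 in DM and at 8.17, 8.17 and 8.13 in TM MEFs, and the arrays of the 3 genotypes did not overlap. The log2 fold change was 0.16 in DM (interval 0.036 to 0.28, limma adjusted p = 0.0438, and 0.0217 to 0.44 over the alternatives), 0.42 in TM (interval 0.30 to 0.54, limma adjusted p = 8.07e-05) and 0.26 for TM minus DM (limma adjusted p = 0.00327), all under the fold limit. Notum, which encodes a secreted Wnt deacylase, ranged from 7.01 to 7.40 over all 9 arrays, below the median of every array. Its log2 fold change was 0.061 in DM (interval -0.12 to 0.24) and -0.035 in TM (interval -0.21 to 0.15), and its genotypes overlapped. Of the 4 measured feedback targets, then, 1 fell in both mutants, and the other values against WT were negative for Axin2, positive for Nkd1 and within their intervals of 0 for Notum.

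Among the ligands, Wnt5a, the main ligand of the ROR receptors, was at 8.18, 8.10 and 8.23 in WT, at 8.83, 8.92 and 8.94 in DM and at 8.62, 8.53 and 8.51 in TM MEFs. The 3 genotypes did not overlap, in the order WT, TM and DM from low to high. Wnt5a rose by 0.72 on the log2 scale in DM (SE 0.061, interval 0.59 to 0.86, limma adjusted p = 1.04e-06). In TM the log2 fold change was 0.38 (interval 0.25 to 0.52, limma adjusted p = 0.000324), or 1.30-fold, and TM minus DM was -0.34 (limma adjusted p = 0.000843), each under the fold limit.

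Wnt4, a ligand known from the kidney and the female reproductive tract, followed the same order. It was at 7.95, 7.87 and 7.90 in WT, at 8.54, 8.55 and 8.39 in DM and at 8.02, 8.15 and 8.11 in TM MEFs, again with no overlap. It rose by 0.59 on the log2 scale in DM (SE 0.063, interval 0.45 to 0.73, limma adjusted p = 9.24e-06), which is 1.51-fold and only just past the limit. The fold limit was no longer passed at 0.502 with median centring, 0.525 after quantile scaling or 0.575 after cyclic loess. The same held at 0.575 without WT replicate 2, at 0.568 without DM replicate 1 and at 0.564 without DM replicate 2, while the adjusted p over all alternatives, mostly from limma, was 5.37e-07 to 0.00512. Wnt4 has a second, dimmer probe set, with means of 7.71 in WT, 8.65 in DM and 7.78 in TM. The pair of probe sets gave the same direction in DM and different sizes, with a log2 fold change of 0.95 from the dimmer one (limma adjusted p = 4.93e-06). In TM against WT the brighter probe set gave 0.19 (limma adjusted p = 0.0364) and the dimmer one 0.08 (limma adjusted p = 0.617). TM minus DM was -0.40 (limma adjusted p = 0.000319) with the brighter and -0.87 (limma adjusted p = 1.29e-05) with the dimmer probe set, the latter past the fold limit.

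Some markers of epithelium also stood highest in DM, as Wnt4 and Wnt5a did, and others did not. Of 8 such markers, 3 were called higher and none lower in DM than in WT MEFs, beside 5.28% and 5.67% of all genes. These were Krt18 by 2.69, Cdh1 by 1.14 and Krt14 by 0.84 on the log2 scale, and the median log2 fold change of the 8 was 0.14. Krt19 and Epcam had log2 fold changes of -0.40 (limma adjusted p = 0.0125) and -0.34 (limma adjusted p = 0.00895) in DM, under the fold limit. In TM none was higher and 1, Krt19, was lower, beside 5.59% and 3.56% of all genes. The mean of the 8 markers per array was 7.69 to 7.72 in WT, 8.18 to 8.33 in DM and 7.41 to 7.50 in TM MEFs, and Epcam, a defining epithelial adhesion gene, was at 6.22 to 6.49 in DM and 6.62 to 6.83 in WT, below the array medians. Xist, the Y-linked genes, Col1a2 and Pdgfra also part the DM arrays from the others. The part of these differences in the ligand levels was not tested.

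The other ligands of the list were not called in any comparison. Wnt2, a ligand of the lung and vascular mesenchyme, was at 6.71 to 6.95 in WT, 6.95 to 7.08 in DM and 6.90 to 7.08 in TM MEFs, below the array median throughout, with a log2 fold change of 0.15 in both mutants (intervals -0.015 to 0.31 in DM and -0.019 to 0.31 in TM). Wnt5b, the paralog of Wnt5a, was at 8.17 to 8.18 in WT, 8.10 to 8.20 in DM and 8.20 to 8.30 in TM MEFs. Its intervals were -0.13 to 0.11 in DM and -0.031 to 0.21 in TM, and neither includes the Wnt5a value of the same comparison. Wnt9a, a ligand known from joint formation, was at 8.20 to 8.22 in WT, 8.27 to 8.39 in DM and 8.04 to 8.25 in TM MEFs, with intervals of -0.046 to 0.25 in DM and -0.25 to 0.047 in TM. TM minus DM was -0.20 for Wnt9a (limma adjusted p = 0.0388), under the fold limit. The differences between ligands were themselves not tested.

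**Figure D2:**
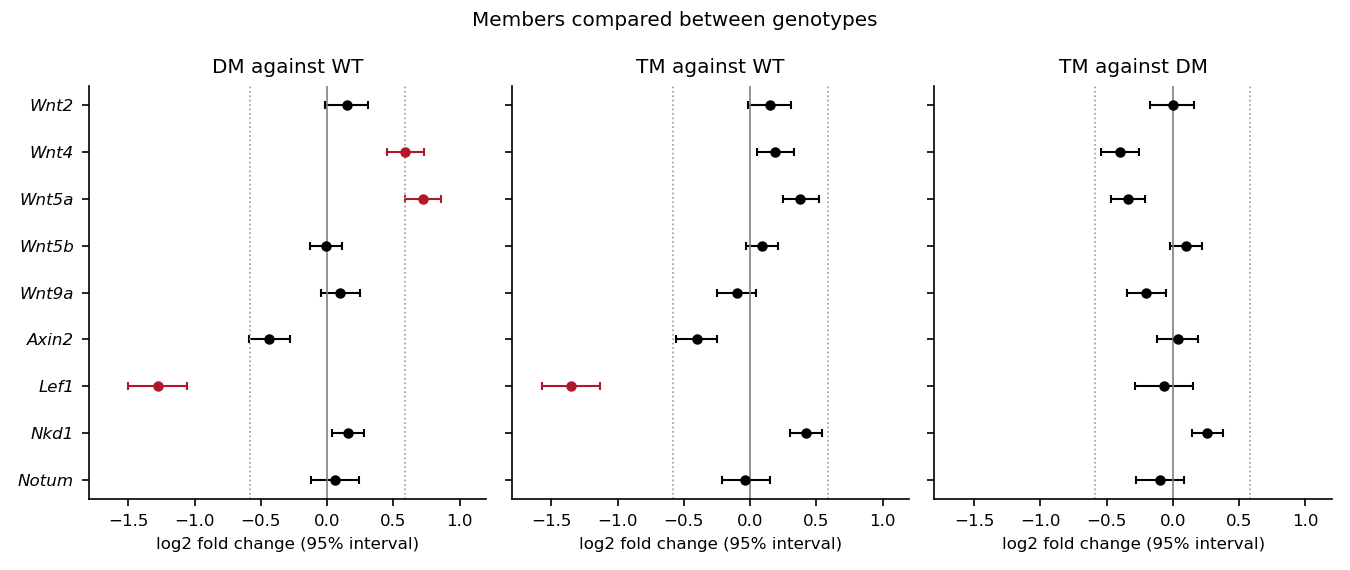
Log2 fold changes of the 9 genes (points) with 95% intervals from limma (bars) for DM against WT, TM against WT and TM against DM. Red marks calls, the solid line is 0 and the dotted lines are the 1.5-fold limit. Lef1 is called lower in both mutants, Wnt4 and Wnt5a higher in DM, and no gene is called between the mutants.

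Without the fold limit, at an adjusted p under 0.05 from limma, 3 of the 9 genes were higher in DM (Wnt4, Wnt5a and Nkd1), beside 17.0% of all genes, and 2 were lower (Lef1 and Axin2), beside 19.8%. The same 3 and 2 genes passed in TM, beside 13.8% and 18.0% of all genes. Between TM and DM, 1 of 9 was higher (Nkd1), beside 15.4%, and 3 were lower (Wnt4, Wnt5a and Wnt9a), beside 16.5%. Both comparisons with WT use the same WT arrays. Arrays did not overlap in DM against WT for 4 higher and 2 lower genes of the 9, beside 22.5% and 23.9% of all genes, and in TM against WT also for 4 and 2, beside 18.3% and 25.1%. In TM against DM they did not overlap for 1 higher and 3 lower genes, beside 18.5% and 21.6%. The list had a median log2 fold change of 0.10 in DM, 0.091 in TM and -0.068 for TM minus DM, where all genes had 0.025, -0.029 and -0.046.

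The ligand family has 14 further genes on the arrays. In DM, Wnt10b rose and Wnt7b fell, beside 5.28% and 5.67% of all genes, and in TM Wnt7b fell, beside 3.56%. Wnt7b, a canonical ligand best known from epithelia, was at 9.52, 9.82 and 9.72 in WT, at 7.29, 7.03 and 7.16 in DM and at 7.13, 6.98 and 7.08 in TM MEFs. Like Lef1, it stood high only on the WT arrays and overlapped between the mutants, where it lay below the array medians. Its log2 fold change was -2.53 in DM (limma adjusted p = 2.15e-10) and -2.62 in TM (limma adjusted p = 1.83e-10), or 5.76-fold and 6.16-fold lower, a larger change than that of any ligand on the list. Wnt10b, a canonical ligand known for holding back fat cell formation, was at 7.63 to 7.79 in WT, 8.31 to 8.57 in DM and 7.87 to 7.92 in TM MEFs, the order seen for Wnt4 and Wnt5a. It rose by 0.74 in DM (limma adjusted p = 4.52e-06). Neither of the secretion genes Porcn, the Wnt acyltransferase, and Wls, the Wnt carrier, was called.

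**Figure D3:**
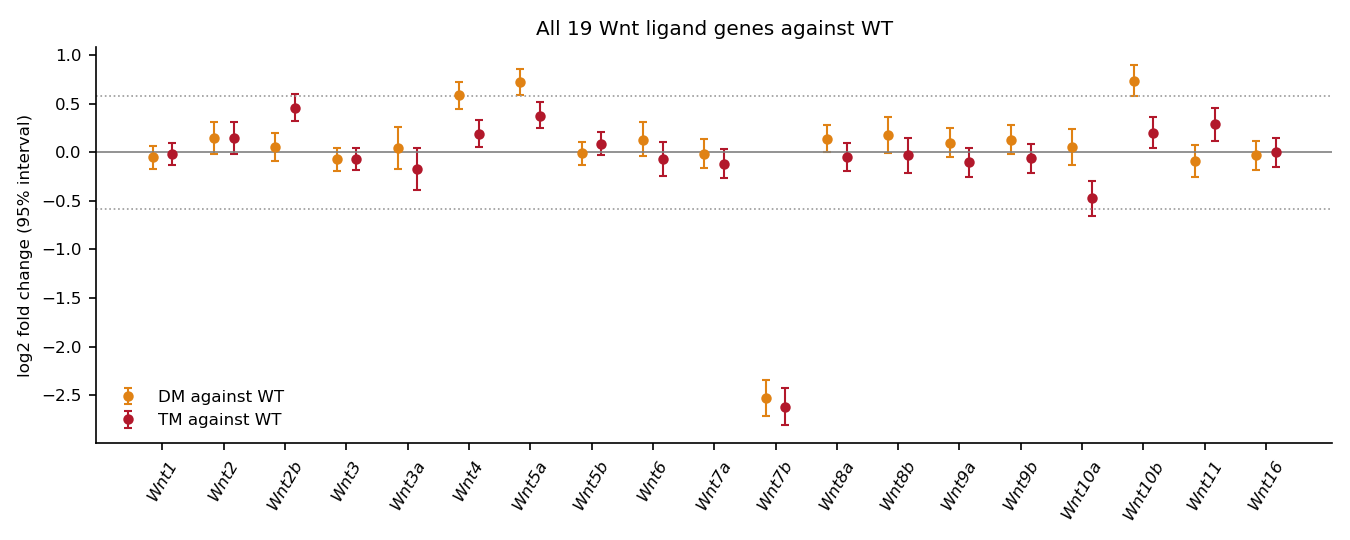
Log2 fold changes against WT of all 19 Wnt ligand genes in DM (orange) and TM (red) MEFs, with 95% intervals from limma (3 arrays per genotype). The solid line is 0 and the dotted lines are the 1.5-fold limit. Wnt7b is at -2.53 in DM and -2.62 in TM, and Wnt4, Wnt5a and Wnt10b are past the upper limit in DM.

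Several receptor genes rose in the mutants. Of 16 Frizzled, LRP and other Wnt receptor genes, 7 rose and 0 fell in DM, beside 5.28% and 5.67% of all genes. In TM 6 rose and 1 fell, beside 5.59% and 3.56%. Fzd1, Fzd4, Fzd7, Fzd8 and Ror1 rose in both mutants. Fzd4, a receptor of canonical ligands and norrin, rose by 1.79 in DM (limma adjusted p = 4.72e-09) and 1.91 in TM (limma adjusted p = 2.67e-09). Ror1, a receptor of WNT5A, was at 8.33, 8.45 and 8.51 in WT, at 10.33, 10.18 and 10.35 in DM and at 9.67 on each TM array. It rose by 1.86 in DM (limma adjusted p = 2.89e-10) and 1.24 in TM (limma adjusted p = 1.54e-08), and it was lower in TM than in DM, so that its levels ran WT, TM and DM from low to high, as those of Wnt5a did. Its paralog Ror2 was at 10.15 to 10.21 in WT, 9.66 to 9.76 in DM and 10.29 to 10.42 in TM MEFs and was higher in TM than in DM by 0.68 (limma adjusted p = 1.96e-06). Fzd6 changed in opposite directions, with log2 fold changes of 1.22 in DM (limma adjusted p = 8.75e-09) and -0.87 in TM (limma adjusted p = 2.47e-07). Fzd2 and Lrp5, the gene of a coreceptor, were lower in TM than in DM, by log2 differences of -0.81 and -0.71. The median log2 fold change of the 16 receptor genes was 0.38 in DM and 0.097 in TM, where all genes had 0.025 and -0.029.

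Inside the cell fewer genes passed the fold limit than among the receptors. Of all genes, 5.28% were called higher and 5.67% lower in DM, and 5.59% and 3.56% in TM. In lists this short, counts of 0 or 1 lie near these shares and describe only the genes named. Ctnnb1, which encodes β-catenin, averaged 12.70 in WT, 12.77 in DM and 12.73 in TM MEFs, with no call. Of 11 dishevelled and destruction complex genes, Amer1, which encodes an APC-binding protein, rose by 1.05 in DM (limma adjusted p = 1.41e-06) and none was called in TM. Amer1 averaged 8.75 in WT, 9.80 in DM and 8.71 in TM MEFs, so that it stood high only on the DM arrays, as Xist did. The part of the sex chromosome difference in the Amer1 level was not tested. Of 11 genes of the nuclear complex, Pygo1, a coactivator gene, rose by 0.95 in DM (limma adjusted p = 5.12e-07) and Tle1, a corepressor gene, rose by 0.84 in TM (limma adjusted p = 2.5e-07). Without the fold limit, 4 dishevelled and destruction complex genes were higher and 3 lower in DM. For the nuclear complex these counts were 5 and 2, beside 17.0% and 19.8% of all genes. In TM they were 1 and 2, and 2 and 3, beside 13.8% and 18.0%. By the same rule the 16 receptor genes had 9 higher and 1 lower in DM, and 8 higher and 2 lower in TM. Of 7 planar polarity genes, none was called in DM, and in TM Prickle2 rose by 0.70 and Vangl1 had a log2 fold change of -0.63.

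Of 12 further feedback and target genes, 2 rose and 2 fell in DM, beside 5.28% and 5.67% of all genes. In TM 1 rose and 1 fell, beside 5.59% and 3.56%. Lgr5, an R-spondin receptor and stem cell marker, was at 6.38 to 6.49 in WT, 8.68 to 8.94 in DM and 6.81 to 6.93 in TM MEFs. It rose by 2.38 in DM (limma adjusted p = 7.02e-11), so that in DM it rose where Lef1 fell. In TM the log2 fold change of Lgr5 was 0.44 (limma adjusted p = 0.000437), under the fold limit. Bambi, which encodes a decoy receptor that is also a BMP target, rose by 0.87 in DM (limma adjusted p = 8.55e-08) and 1.41 in TM (limma adjusted p = 9.64e-10). Myc, a growth regulator induced by many pathways, had a log2 fold change of -0.80 in DM (limma adjusted p = 1.34e-07). In TM that of Myc was -0.37 (limma adjusted p = 0.000181), under the fold limit. Ccnd1, the cyclin D1 gene, was lower in both mutants.

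Secreted modulators held the largest differences from WT among the pathway lists. Of 17 secreted antagonist and R-spondin genes, 6 rose and 3 fell in DM, and 5 rose and 2 fell in TM. Sfrp1 and Sfrp2 encode secreted Frizzled-related proteins, which bind Wnt ligands outside the cell. Sfrp1 was at 6.50, 6.56 and 6.20 in WT, at 9.31, 9.49 and 9.41 in DM and at 12.21, 12.25 and 12.35 in TM MEFs, and rose by 2.98 in DM (limma adjusted p = 6.47e-11) and 5.85 in TM (limma adjusted p = 5.1e-13). Sfrp2 rose by 3.43 in DM (limma adjusted p = 1.11e-12) and 5.62 in TM (limma adjusted p = 3.32e-14). Both stood highest in TM, with no overlap between genotypes, whereas Wnt4 and Wnt5a stood highest in DM. Frzb, another gene of that family, was highest in DM and rose by 2.29 there and by 0.78 in TM. It averaged 5.83 in WT, 8.11 in DM and 6.61 in TM MEFs, so that its WT and TM levels lay below the array medians. Dkk2, which encodes an LRP ligand of the Dickkopf family, had log2 fold changes of -2.65 in DM and -2.49 in TM, and Rspo2, an activator of the pathway through LGR receptors, rose by 0.67 in DM and 4.30 in TM. Its relative Rspo3 rose by 4.12 in TM (limma adjusted p = 1.29e-12) and had a log2 fold change of 0.30 in DM. Thy1 stood high on the same TM arrays as Rspo2, Rspo3, Sfrp1 and Sfrp2, and its part in these levels was not tested. Over all these 90 other pathway genes, 18 rose and 6 fell in DM, beside 5.28% and 5.67% of all genes, and 14 rose and 6 fell in TM, beside 5.59% and 3.56%. Each of the 102 counts over gene lists was the same at an unadjusted p under 0.05 with the fold limit kept.

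**Figure D4:**
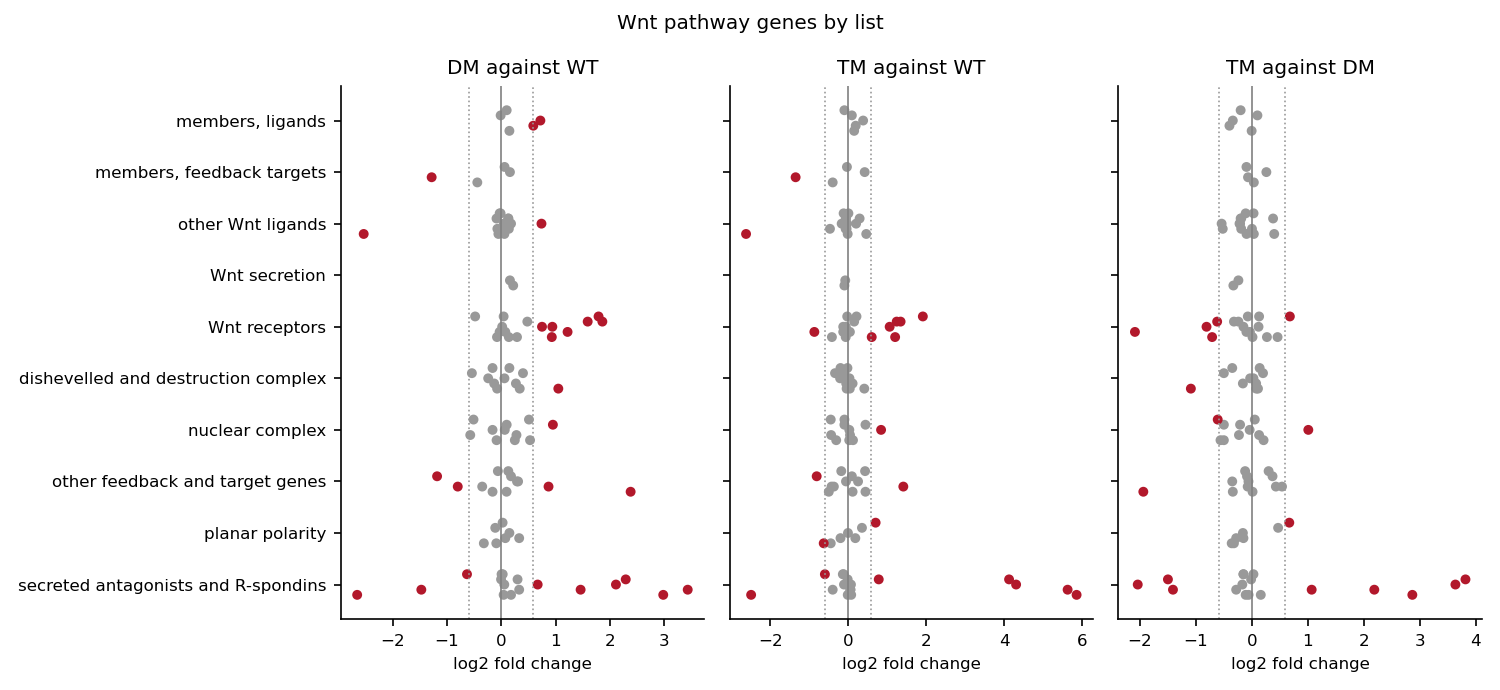
Log2 fold changes (horizontal axis) of the listed Wnt pathway genes by role (rows) for DM against WT, TM against WT and TM against DM. Each point is a gene, red marks calls and dotted lines are the 1.5-fold limit. The receptors hold 7 calls above 0 in DM, and the genes of the list hold Wnt4 and Wnt5a above 0 and Lef1 below it.

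Genes with the pattern most like that of each called gene were sought over all 9 arrays, as the smallest root mean square difference between log2 profiles centred on their own means. For Lef1 these were Ndrg1 and Dipk1c (0.12 each) and Rab6b (0.13), with log2 fold changes of -1.34, -1.25 and -1.25 in DM and -1.36, -1.30 and -1.48 in TM. For Wnt5a they were Rbms3 (0.051), Gpr153 (0.052) and Tbc1d2b (0.054), with 0.70, 0.61 and 0.82 in DM and 0.38, 0.31 and 0.40 in TM. For Wnt4 they were Thbs4 (0.045), Mir680-3 (0.049) and Tmem44 (0.057), with 0.57, 0.61 and 0.67 in DM and 0.22, 0.14 and 0.23 in TM. The likeness covers 9 arrays in 3 groups and describes levels.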

How the data were processed

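Triplicate RNA samples of each genotype were labelled and hybridised to Affymetrix Gene ST arrays, and images were converted with GCOS and analysed in GeneSpring GX, per the methods. The values as deposited by the authors are log2 signals of 35556 probe sets, and the submitters' processing notes name RMA, which corrects the background, normalizes between arrays and summarises probes, so that small differences in total signal were removed before deposit. PLIER values were not used here. GEO's annotation of the platform pairs 21789 probe sets with a single symbol and 1621 with more, and leaves 12146 unlisted. The brightest probe set per gene over the 9 arrays was kept, which left 19938 genes. Coordinates are those of the RefSeq promoter table only, since no build is given for the arrays in the sources used here.

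All arrays were fitted in a single limma 3.58.1 model in R 4.3.3 (lmFit and eBayes, 6 residual degrees of freedom). The fit was tested on simulated data. Promoters were searched in Python 3.11.15. The genes named are those of the list, the mutated genes, up to 4 called genes of each other list with the largest changes, and the 3 genes of most like pattern. Fibroblast, sex chromosome and epithelial genes are named as checks, Ctnnb1, Fzd7, Porcn and Wls as pathway genes outside that rule. The genes, lists and rules were chosen with earlier results of these data known. Alternatives were other scalings, probe set rules, variance models, thresholds, Student's t-test, a fit of only the 6 arrays compared, a filter on dim genes, array weights, the replicate number as a block, and leaving out each array. The methods name no test for the arrays. The number of arrays limits the precision.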

Additional observations from a re-analysis of the deposited data

How the results depend on the processing

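The log2 fold changes of the 9 genes in 3 comparisons gave 27 values, of which 25 kept their side of the call under every alternative run, and no called value reversed. Wnt4 is the exception in DM against WT and TM against DM. The calls in DM against WT, 2 higher, became 1 after centring on the median, after quantile scaling or after cyclic loess, and 0 with a limit of 2-fold, and ranged from 1 to 2 when an array was left out. The calls in DM against WT, 1 lower, became 2 with no fold limit. In TM against WT, 0 higher and 1 lower became 3 and 2 with no fold limit. In TM against DM, 0 higher and 0 lower became 1 and 3 with no fold limit, and 1 was lower, Wnt4, with the mean of its probe sets. Lef1 ranged from -1.37 to -1.20 in DM and from -1.43 to -1.25 in TM, with adjusted p from 7.3e-08 to 0.0042 and from 5.44e-08 to 0.0076, and Wnt5a in DM from 0.634 to 0.757. The replicate numbers of the labels did not pair the arrays, as correlations of same-numbered arrays ran from -0.24 to 0.17 and 1 of 9 exceeded 0.1. With the replicate number as a block, 2 higher and 1 lower were called in DM, 0 and 1 in TM, and 0 and 0 in TM against DM. The filter on dim genes left out 8292 genes, Wnt2 and Notum among them, which therefore have no value there. Among the other lists, nuclear complex genes higher in DM numbered 3 after cyclic loess and 2 without DM replicate 3 in place of 1, and those lower numbered 2 after median centring or without WT replicate 1, and 1 without DM replicate 2, in place of 0. The destruction complex list had 1 lower gene in DM after median centring or without DM replicate 3 in place of 0. Vangl1 in TM was not called after cyclic loess. The secreted genes lower in TM numbered 1 in place of 2 after quantile scaling or cyclic loess, and without WT replicate 2, WT replicate 3 or TM replicate 3. The causes were not tested. Median centring moved the median of all genes by -0.09 in DM against WT, the most of the scalings run.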
